A study of Rattus norvegicus with 6 samples.

Results

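The genes described here are the enzymes that build and desaturate fatty acids and the regulators listed with them: Scd, Fads1, Fads2, Fasn, Acaca, Elovl6, Acly, Me1, Srebf1 and Thrsp. They were followed in the jejunum of rats under heat and shake stress. A probe of the array was taken as a member where its RefSeq accession belongs to 1 of these 10 genes, which gave 12 probes for 9 genes, among 13831 named genes on the array. No probe was matched to Srebf1 by accession, so it has no value here. Scd was chosen by its difference between the groups in these same arrays, and the other genes were listed around it, so the values of Scd are a description without a test.

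Fatty acids are built from acetyl-CoA. ATP citrate lyase (Acly) releases acetyl-CoA from citrate in the cytosol, malic enzyme (Me1) supplies NADPH, acetyl-CoA carboxylase (Acaca) makes malonyl-CoA, fatty acid synthase (Fasn) assembles palmitate, and Elovl6 lengthens it. Scd puts the first double bond into saturated chains, whereas Fads1 and Fads2 act on polyunsaturated chains; the transcription factor encoded by Srebf1 drives many of these genes, and Thrsp is a small nuclear protein induced together with them. In the small intestine, enterocytes re-esterify fatty acids into triglyceride for chylomicrons.

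All animals were male Sprague-Dawley rats, 6 weeks old and weighing 200 ± 20 g by the labels, and lived at 25°C in air of 60% humidity. Rats of the S3d group spent 2 h a day on 3 days in a shaker at 35°C that moved them at 0.1 g, and the control group was not stressed. Each group has 3 samples, and each sample is total RNA pooled from 3 rats. The labels give 10 rats in each group and the methods of the study give 6, so rats may be shared between pools, and p-values measure only the spread between these 3 pools a group.

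The values are 1-colour Agilent array signals. A level is the log2 processed signal of a probe minus the log2 of the 75th percentile of its array, so a level of 0 equals that percentile. Apart from sums over marker lists and the ranking of probes by signal, levels of different probes were not set against each other. A log2 fold change is the mean level of the arrays labelled S3d minus that of the arrays labelled control. The 75th percentile of the signal was 414.8 to 430.0 in the control group, against 1457.7 to 1558.3 in the S3d group. Each group had a slide of its own, with 450 days between the scans, so slide, scan and group cannot be told apart. Of the 31367 probes tested, 39.5% were called higher and 34.5% were called lower at an adjusted p under 0.05, with a median log2 fold change of 0.08. Higher calls were 53.4% of all calls with this scaling, 98.1% without scaling between arrays (median log2 fold change 1.93) and 25.8% after normexp background correction (median -0.42), which is given here with the extreme local background of 8 spots replaced, a setting chosen after the data were seen.

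The labels of the arrays conflict between the deposited files. Each of the 6 columns of the deposited normalized table matched a scanner file that carries the opposite group label and an equal replicate number (rank correlation at least 0.99999, against 0.941 to 0.948 with the file of its own label). No sample was reassigned, and the labels of the scanner files are used here. The directions below are those of the scanner labels, and which labels are right was not settled here. The study reports real-time PCR of selected genes with the same directions as its own arrays. The normalized table, whose labels the study's directions follow, gives the opposite sign for 8 of the 9 measured members. Elovl6 was at -0.02 here and at -0.37 in that table, which is quantile-normalized. Under quantile normalization with the scanner labels Elovl6 was at 0.39, so it turned with the labels as well.

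The array labelled S3d 1 stood apart. Digestive enzymes of the exocrine pancreas were at very high levels on it: Prss1 (trypsin) was at 8.79, against -2.73 to 0.88 on the other 5 arrays, and Ctrb1 (chymotrypsin) was at 8.91, against -0.45 to 0.10. The summed level of the 9 pancreas markers was 11.01 on the log2 scale on S3d 1, and 0.20 to 0.67 on the arrays labelled control. On S3d 1, 56 probes exceeded each other array by over 5 on the log2 scale, against 0 to 14 on the other arrays. Values of the members without this array are given beside their results, and for the other lists the calls that changed without it. Fabp2 (levels 8.07 to 9.34), Apoa4 (8.69 to 10.22) and Alpi (6.80 to 7.92), defining products of villus enterocytes, were bright on all 6 arrays, in keeping with the tissue label.

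**Figure D1:**
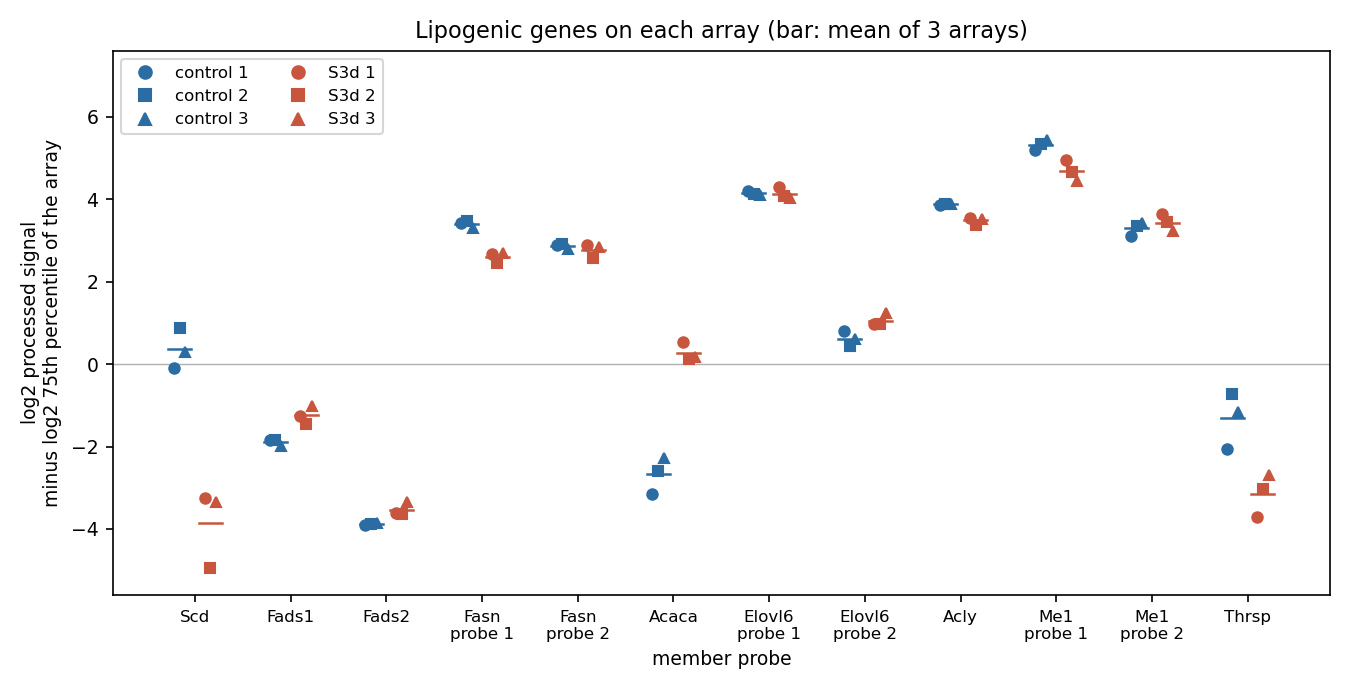
Level of each of the 12 member probes on each array (vertical axis: log2 processed signal minus the log2 75th percentile of the array; blue, arrays labelled control; red, arrays labelled S3d; bars, means of 3 arrays). Scd and Thrsp sit lower and Acaca higher on the arrays labelled S3d, while the bright probes of Fasn, Elovl6, Acly and Me1 differ by less than 1 between the group means.

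Scd had the widest gap of the members. Its single probe was at -0.09, 0.88 and 0.29 on control 1, 2 and 3, and at -3.24, -4.95 and -3.35 on S3d 1, 2 and 3. The groups did not overlap, and S3d 2 was the lowest array. The level was 0.36 ± 0.49 (SD, n = 3) in the control group and -3.85 ± 0.95 (SD, n = 3) in the S3d group, a log2 fold change of -4.21 (SE 0.51), which is an 18.5-fold lower level. Without S3d 1 the log2 fold change was -4.51. Scd was dim on the S3d arrays, though well above background on each, so its fold depends on the background correction. After normexp background correction with the 8 spots replaced, the log2 fold change was -3.45. The processed signal itself was 391, 785 and 526 in the control group and 154, 50.4 and 152 in the S3d group. Without any scaling the log2 fold change of Scd was -2.36, and no other member stayed lower. Leaving out the scaling moves all probes alike, so this only restates the size for which Scd was chosen. Minus the median of all tested probes, Scd was at -4.29 with and without scaling. Of all tested probes, 12 had a lower log2 fold change than Scd. Among the brightest probes of named genes, Zdhhc18 (-4.84) lay just below it and the linker histone gene H1f5 (-4.00) just above it. By the labels of the normalized table, the log2 fold change of Scd was 4.40.

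The promoters of Scd, of its relative Scd2, of Thrsp and of Fads1 are shown because the first 3 genes were lower and Fads1 higher on the arrays labelled S3d. The windows come from RefSeq (GRCr8), run from 250 bases before to 50 bases after the gene start, and are printed on the strand of the gene. Capitals mark CCAAT (the NF-Y box) and GGGCGG (the Sp1 box) on either strand. The window of Scd is chr1:253231682-253231981 (minus strand), that of Scd2 is chr1:253118127-253118426 (plus strand), that of Thrsp is chr1:161138915-161139214 (minus strand), and that of Fads1 is chr1:216252442-216252741 (plus strand).
Scd: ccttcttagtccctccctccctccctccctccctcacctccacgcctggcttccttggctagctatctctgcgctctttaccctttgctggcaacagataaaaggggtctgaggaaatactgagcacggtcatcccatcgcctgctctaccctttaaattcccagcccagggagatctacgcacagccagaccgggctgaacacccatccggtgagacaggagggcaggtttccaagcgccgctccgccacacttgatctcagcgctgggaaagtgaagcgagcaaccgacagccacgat
Scd2: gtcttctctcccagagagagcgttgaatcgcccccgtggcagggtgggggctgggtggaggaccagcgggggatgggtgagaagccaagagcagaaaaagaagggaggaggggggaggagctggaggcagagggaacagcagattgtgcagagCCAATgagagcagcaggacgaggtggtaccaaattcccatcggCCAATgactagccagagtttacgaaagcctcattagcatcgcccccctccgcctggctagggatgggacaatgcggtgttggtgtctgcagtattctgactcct
Thrsp: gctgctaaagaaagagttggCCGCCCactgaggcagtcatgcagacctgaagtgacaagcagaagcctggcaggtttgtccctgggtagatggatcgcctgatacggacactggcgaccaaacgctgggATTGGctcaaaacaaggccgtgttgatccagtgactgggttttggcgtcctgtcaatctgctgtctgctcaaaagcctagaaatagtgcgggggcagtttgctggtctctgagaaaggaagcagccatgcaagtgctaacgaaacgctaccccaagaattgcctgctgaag
Fads1: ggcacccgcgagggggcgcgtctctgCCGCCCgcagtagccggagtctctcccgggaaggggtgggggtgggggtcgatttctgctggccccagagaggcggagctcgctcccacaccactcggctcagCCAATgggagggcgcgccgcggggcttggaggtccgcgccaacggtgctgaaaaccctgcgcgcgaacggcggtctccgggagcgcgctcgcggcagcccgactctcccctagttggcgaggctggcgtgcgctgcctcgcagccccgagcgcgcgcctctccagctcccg
The window of Scd held neither motif, that of Scd2 held CCAAT at 2 places, and those of Thrsp and Fads1 held each motif once. CCAAT was found in 37.5% and GGGCGG in 33.1% of all 33469 promoter windows of this length. The sterol response letters TCACNCCAC (1.12% of windows), the E-box CACGTG (6.42%) and the TATA box TATAAA (14.2%) were in none of the 4 windows on either strand. No match overlapped another. The levels of these genes are described above and below, and nothing about a factor's binding follows from such a match.

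The other desaturase members moved the other way and far less. Fads1, which makes arachidonic acid from its precursor, was at -1.83, -1.84 and -1.99 on the control arrays and at -1.25, -1.46 and -1.01 on the S3d arrays. The lowest S3d array lay above the highest control array. Fads1 was higher in the S3d group by a log2 fold change of 0.65 (SE 0.13, limma adjusted p = 0.004) and by the same 0.65 without S3d 1 (limma adjusted p = 0.012). Fads2, the enzyme at the entry of that pathway, was dim, at -3.91, -3.88 and -3.86 on the control arrays and at -3.61, -3.63 and -3.35 on the S3d arrays. The groups did not overlap. Its log2 fold change was 0.36 (SE 0.09, limma adjusted p = 0.013), close to the median of 0.31 for probes of like signal, and 0.40 without S3d 1 (limma adjusted p = 0.019). The call of Fads2 was lost under quantile normalization (0.06, limma adjusted p = 0.63), and its direction turned after normexp background correction (-0.71, limma adjusted p = 6e-05).

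Among the chain-building enzymes, Acaca was higher and Fasn was lower in the S3d group. Acaca was at -3.14, -2.60 and -2.28 on the control arrays and at 0.54, 0.12 and 0.18 on the S3d arrays. The groups were far apart, with control 1 the lowest array and S3d 1 the highest. The log2 fold change was 2.95 (SE 0.24, limma adjusted p = 9.9e-05), a 7.73-fold higher level, and 2.82 without S3d 1 (limma adjusted p = 0.00049). It rests on 1 probe, and 626 of the tested probes had a larger value.

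Fasn was read by 2 probes that disagreed. The brighter probe was at 3.41, 3.48 and 3.31 on the control arrays and at 2.66, 2.46 and 2.70 on the S3d arrays, without overlap. It was lower by a log2 fold change of -0.80 (SE 0.09, limma adjusted p = 0.00043), and -0.82 without S3d 1 (limma adjusted p = 0.0016). The second probe was at 2.90, 2.92 and 2.79 on the control arrays and at 2.88, 2.57 and 2.83 on the S3d arrays, where the groups overlapped. Its log2 fold change was -0.11 (SE 0.10, limma adjusted p = 0.36), so the fall of Fasn was seen by 1 of its 2 probes.

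Elovl6 gave no call on its brighter probe. That probe was at 4.19, 4.13 and 4.11 on the control arrays and at 4.29, 4.07 and 4.02 on the S3d arrays. The groups overlapped, and the log2 fold change was -0.02 (SE 0.09, limma adjusted p = 0.85), or -0.10 without S3d 1 (limma adjusted p = 0.24). The dimmer probe was at 0.80, 0.45 and 0.60 on the control arrays and at 0.96, 0.97 and 1.24 on the S3d arrays, without overlap, with a log2 fold change of 0.44 (SE 0.12, limma adjusted p = 0.018). Under quantile normalization the brighter probe was called higher too (0.39, limma adjusted p = 0.0051). The brighter probes of Elovl6 and of Me1 were read from the low-gain scan on the 3 S3d arrays alone, and the part of this in their values was not tested.

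Both suppliers of acetyl-CoA and NADPH were lower by small amounts. Acly was at 3.87, 3.88 and 3.89 on the control arrays and at 3.55, 3.38 and 3.53 on the S3d arrays, without overlap. The log2 fold change of Acly was -0.39 (SE 0.07, limma adjusted p = 0.0028), and -0.42 without S3d 1 (limma adjusted p = 0.0052). The brighter probe of Me1 was at 5.19, 5.34 and 5.43 on the control arrays and at 4.95, 4.65 and 4.45 on the S3d arrays, without overlap. For this probe the log2 fold change was -0.63 (SE 0.14, limma adjusted p = 0.0077), and -0.76 without S3d 1 (limma adjusted p = 0.0022). The second probe of Me1 did not share this: it was at 3.10, 3.36 and 3.43 on the control arrays and at 3.63, 3.45 and 3.22 on the S3d arrays, with a log2 fold change of 0.14 (SE 0.14, limma adjusted p = 0.39).

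These bright probes have to be read against others of like signal. The tested probes were split by signal into 10 bins of 3136 or 3137 probes. The median log2 fold change was -0.49 in the brightest bin and 1.28 in the dimmest. Against the median of its own bin, the brighter probe of Fasn was at -0.31, Acly at 0.10, the brighter probe of Me1 at -0.14 and the brighter probe of Elovl6 at 0.47. Quantile normalization, which removes such a trend, left no call for Acly (-0.05, limma adjusted p = 0.56) or Me1 (-0.16, limma adjusted p = 0.35), so that 2 members instead of 4 were called lower. Scd, Thrsp and Acaca lay outside the 5th to 95th percentile of their bins, which ran from -1.65 to 1.71 for Scd and Acaca and from -1.71 to 1.79 for Thrsp.

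**Figure D2:**
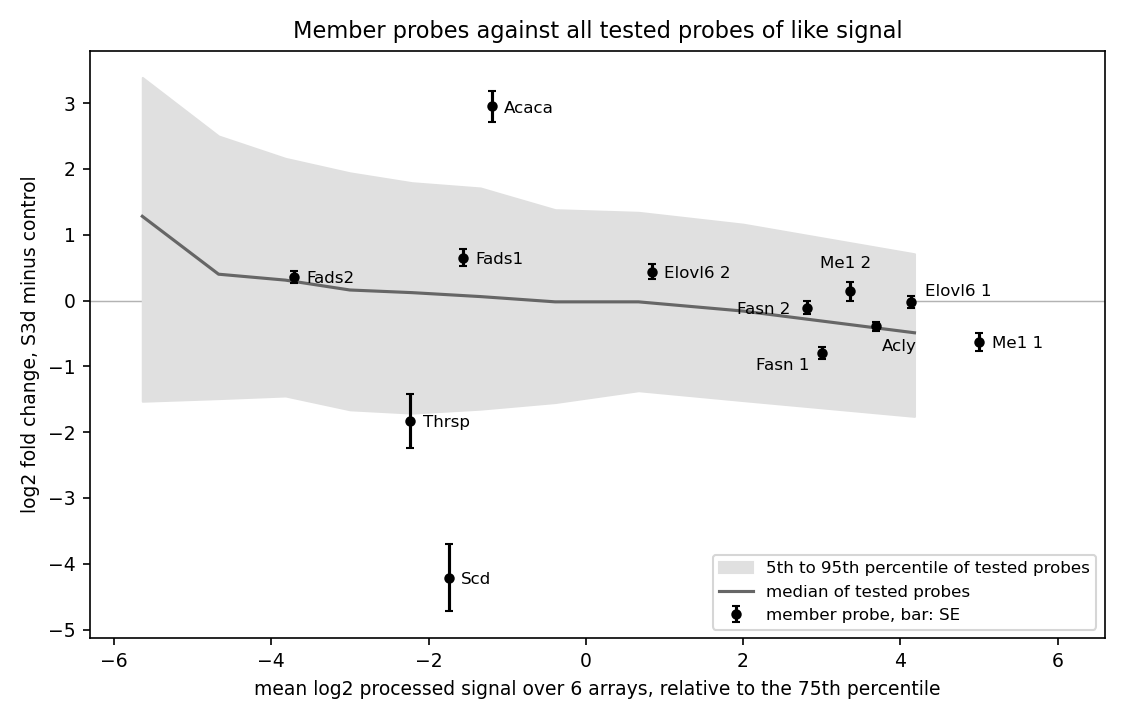
Log2 fold change (S3d minus control, vertical axis, bars are SE) of the 12 member probes against their mean level over the 6 arrays (horizontal axis, log2). The grey line and band are the median and the 5th to 95th percentile of all tested probes in 10 bins of signal; the line falls from 1.28 to -0.49, and Scd (-4.21), Thrsp (-1.83) and Acaca (2.95) lie outside the band.

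Of the regulators, Thrsp was lower in the S3d group. Its probe was at -2.07, -0.73 and -1.16 on the control arrays and at -3.72, -3.04 and -2.70 on the S3d arrays. The groups did not overlap, although control 1 (-2.07) lay near S3d 3 (-2.70). The log2 fold change was -1.83 (SE 0.41, limma adjusted p = 0.0074), a 3.56-fold lower level, and -1.55 without S3d 1 (limma adjusted p = 0.02). Without scaling between arrays it was 0.01 (limma adjusted p = 0.98), since the processed signal of Thrsp was nearly alike in both groups. Minus the median of all tested probes, Thrsp was at -1.92 with and without scaling.

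With Scd left out, 3 of the 8 other measured members were called higher (Fads1, Fads2, Acaca), 4 were called lower (Fasn, Acly, Me1, Thrsp) and Elovl6 was not called, against 39.5% higher and 34.5% lower among all tested probes. With a fold of at least 1.5 required as well, 2 members remained higher (Fads1, Acaca), beside 29.2% of all probes, and 3 remained lower (Fasn, Me1, Thrsp), beside 23.3%. The groups did not overlap for 7 of the 8 members, and for 78.9% of all tested probes. The median log2 fold change of these 8 was -0.21, against 0.08 for all probes. The counts of 3 and 4 were the same without S3d 1. By the normalized table and its own labels, 2 members were called higher and 3 lower, 24 and 27 of the other lipogenic genes, and 11078 and 10897 probes. A share near that of all probes is no result about these genes. Without scaling between arrays 7 of the 8 were higher with limma and 0 were lower, also 0 at an unadjusted p under 0.05. Of all tested probes, 94.2% were higher and 1.86% lower in that setting.

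How far a single probe stands for its gene bears on the 6 members with 1 probe each: Scd, Fads1, Fads2, Acaca, Acly and Thrsp. Over the 2624 named genes with at least 2 tested probes, the log2 fold changes of the 2 brightest probes differed by a median of 0.66, and by 2.20 at the 95th percentile. In 18.3% of these genes both probes were called, in opposite directions. The log2 fold changes of Fads1 (0.65), Fads2 (0.36) and Acly (-0.39) are smaller in size than the median difference of 0.66.

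Markers of fat cells are given beside Scd and Thrsp, since fat cells express both genes. In the control group, Adipoq (adiponectin) was at -1.17, -0.14 and -0.60 and Retn (resistin) at -1.88, -0.32 and -0.77, so control 1 was lowest and control 2 highest for both, as for Scd and Thrsp. On the S3d arrays Adipoq was at -2.51, -1.29 and -0.75 and Retn at -3.36, -1.15 and -0.76, an order that Thrsp shared and Scd did not. Neither marker differed by the test: the log2 fold change of Adipoq was -0.88 (limma adjusted p = 0.15) and that of Retn was -0.76 (limma adjusted p = 0.4), and without S3d 1 they were -0.38 and 0.04. Of 11 tested adipocyte markers, 6 were called lower, among them Cfd (adipsin, -1.40), Fabp4 (-1.37) and Aqp7 (-1.66), and 2 were called higher, Cidea (0.89) and Acvr1c (0.90), the latter not without S3d 1 (limma adjusted p = 0.058). The summed level of the list was 4.96 to 5.18 on the control arrays and 3.86 to 3.98 on the S3d arrays on the log2 scale. Lep (leptin) was not well above background on any array. Aqp7, Lipe and Pnpla2 are also made in the intestinal wall outside fat. The part of fat tissue in the values of Scd and Thrsp was not tested.

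**Figure D3:**
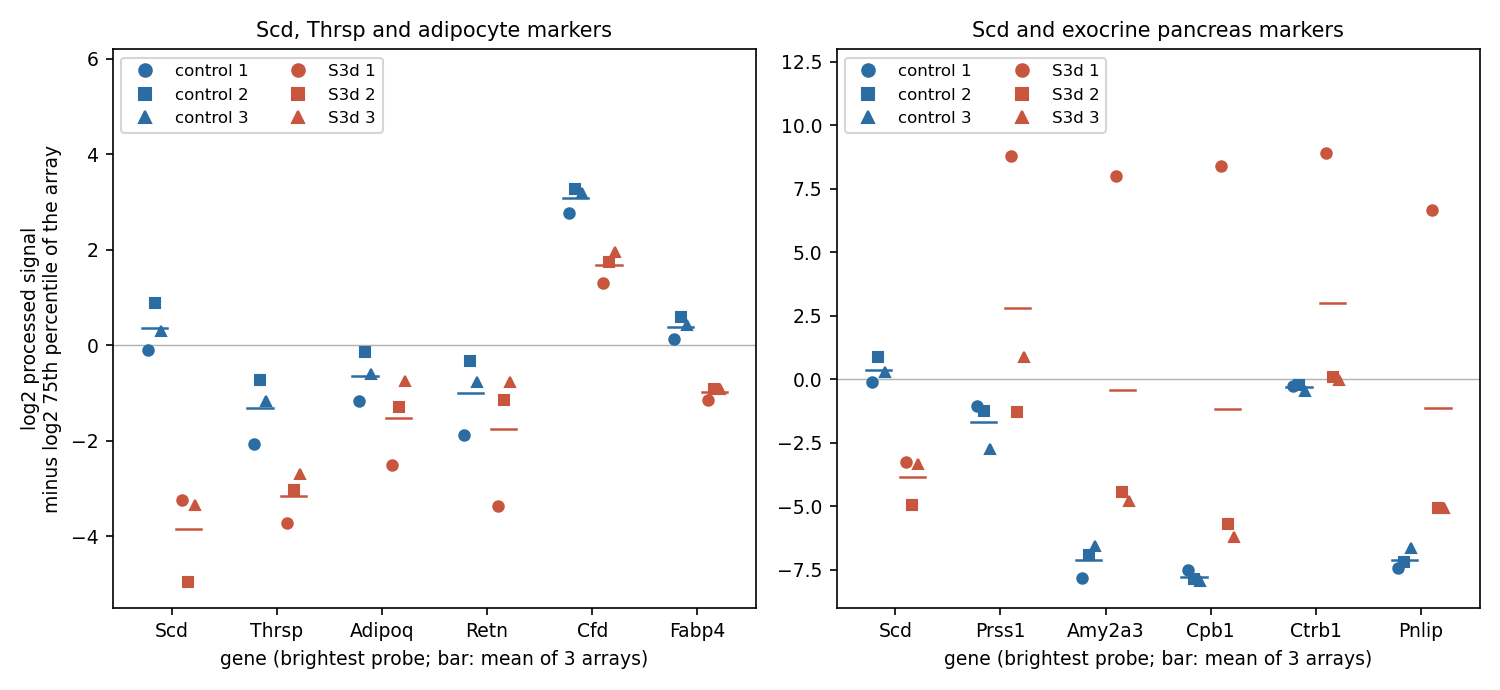
Level (vertical axis, log2 relative to the 75th percentile of the array) of Scd and Thrsp beside adipocyte markers (left) and of Scd beside exocrine pancreas markers (right), for each array; bars are means of 3 arrays. Adipoq and Retn overlap between the groups, whereas Cfd, Fabp4, Scd and Thrsp do not. The 5 pancreas markers plotted stand at 6.67 to 8.91 on S3d 1 alone.

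The cell type counts stand against 39.5% higher and 34.5% lower among all tested probes. Of 10 tested villus enterocyte markers, 7 were called lower, such as the fatty acid carrier Fabp1 (-1.64) and the chylomicron protein Apoa4 (-1.42), and Lct was called higher (0.66), though not without S3d 1 (limma adjusted p = 0.095). Their summed level was 11.81 to 11.98 on the control arrays and 10.68 to 10.72 on the S3d arrays on the log2 scale. The 7 called lower lie in the brightest bin of signal, whose median log2 fold change was -0.49. Against that median, Fabp1 was at -1.15, Apoa1 at -0.97, Apoa4 at -0.93, Fabp2 at -0.60 and Alpi at -0.47. Mttp was at -0.07 and Vil1 at 0.20 against it. Of the other cell type lists, 5 of 7 crypt and proliferation markers were called higher and 2 lower, 3 of 5 markers of mucus-secreting and antimicrobial cells lower, 2 of 6 smooth muscle markers in each direction, and 5 of 6 leukocyte markers lower and 1 higher. Without S3d 1 the calls of Lgr5, Itgam and Cd8a were lost too, while 4 of the 7 tested pancreas markers became called higher and 1 lower, against 0 with it. In bulk tissue, fewer cells of a type and less RNA per cell cannot be told apart, and the part of these markers in the values of Fasn, Acly and Me1 was not tested.

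The other genes of lipogenesis were taken from a list of 81 genes in 9 role groups, of which 72 were matched to a probe and 69 were tested. The brightest probe was called higher for 23 of them (33.3%) and lower for 30 (43.5%), with a median log2 fold change of -0.08, against 39.5% higher, 34.5% lower and a median of 0.08 among all tested probes. The counts are a description and single out nothing about these genes. Without S3d 1 they were 22 and 26, and the calls of Cyb5r3, Acsl1, Acsl4, Usf2 and Mecr were lost. The 22 genes of this list chosen by size or family kept their sign without S3d 1, 19 were called with and without it, and the log2 fold change moved by at most 0.14 (Elovl1).

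Among the relatives of Scd and of the Fads genes the calls were lower. Scd2, a second stearoyl-CoA desaturase, was at 2.55, 2.44 and 2.23 on the control arrays and at 1.38, 0.96 and 1.48 on the S3d arrays by its brightest probe, without overlap. Its log2 fold change was -1.13 (SE 0.16, limma adjusted p = 0.001), and the dimmer probes gave -0.87 and -0.47, both called lower. Fads3, a further member of its family, was at 2.30, 2.26 and 2.49 on the control arrays and at 0.60, 0.59 and 0.72 on the S3d arrays. It was lower by a log2 fold change of -1.71 (SE 0.09, limma adjusted p = 2.3e-05). Without scaling between arrays, Scd2 (0.71) and Fads3 (0.13) had the opposite sign, by a shift that all probes share. Minus the median of all tested probes, Scd2 was at -1.22 and Fads3 at -1.80 with and without scaling. Degs2, a sphingolipid desaturase, was lower too (-1.50), whereas 2 of the genes that pass electrons to desaturases, Cyb5b and Cyb5r3, were called higher, Cyb5r3 not without S3d 1 (0.24, limma adjusted p = 0.052). In all, 4 of the 7 tested genes of this group were called lower and 2 higher.

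The genes of chain elongation did not share a direction. Elovl1, which lengthens very long saturated chains, was at 1.89, 1.65 and 1.68 on the control arrays and at 3.46, 3.01 and 3.05 on the S3d arrays, a log2 fold change of 1.43 (SE 0.14, limma adjusted p = 0.00024); its second probe gave 0.45. Hsd17b12, a reductase of the elongation cycle, was higher by 1.64 (SE 0.09, limma adjusted p = 3.2e-05), without overlap between the groups. Elovl7 (-0.14), Elovl5 (0.33) and Elovl2 (0.40) were not called, and Elovl5 and Elovl2 were not well above background on every control array. Hacd3 (-0.81 by its brightest probe) and Tecr (-0.53 and -0.46 by its probes) were called lower. Of the 8 tested genes of this group, 3 were called higher and 2 lower, beside 39.5% and 34.5% of all tested probes. Elovl3, Elovl4 and the desaturase Fads6 were too dim to be tested.

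In the supply of precursors, Slc25a1, the carrier that exports citrate from mitochondria, was lower (-0.92, limma adjusted p = 9e-05), as was Tkt of the pentose phosphate pathway (-0.96, limma adjusted p = 9.6e-05), while 3 of the 9 tested genes, Acss2, Mdh1 and Me2, were called higher. Tkt was among the brightest probes, and its sign turned under quantile normalization (0.12). Of the genes that handle malonyl-CoA, the AMP-activated kinase subunits Prkab2 (-1.26) and Prkag1 (0.80) were called in opposite directions. Acacb, the mitochondrial form of acetyl-CoA carboxylase, was not well above background on any control array and was at least 1.76-fold higher in the S3d group. It entered the test through the S3d arrays alone, so this bound is a description, and when each of the 6 arrays had to be well above background, 22 of the lipogenic genes were higher.

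Of 5 acyl-CoA synthetases, 4 were called lower, with Acsl3 at -0.84, and Acsl6 was called higher at 0.52, though not under quantile normalization (0.07). Without S3d 1 the calls of Acsl1 (limma adjusted p = 0.073) and Acsl4 (limma adjusted p = 0.053) were lost, which left 2 lower. The 4 probes of Acsl1 ranged from -1.61 to 1.00. Of 11 glycerolipid genes, 4 were called in each direction. Dgat1 and Dgat2, which add the last acyl chain to triglyceride, were both lower, at -1.17 and -1.02, and at -0.29 and -0.58 under quantile normalization (limma adjusted p = 0.0093 and 0.0025). The second probe of Dgat1 gave -0.14 (limma adjusted p = 0.11), whereas all 3 probes of Dgat2 were between -1.16 and -0.88.

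Among the regulators around Srebf1, Insig1, which holds the SREBP complex in the endoplasmic reticulum, was at 5.54, 5.47 and 5.36 on the control arrays and at 3.83, 4.01 and 4.25 on the S3d arrays. Its log2 fold change was -1.43 (SE 0.12, limma adjusted p = 0.00012), but its other 3 probes gave -0.51, -0.24 and 0.26. Mbtps1, the first protease that cuts SREBP, was higher (0.85, limma adjusted p = 6.9e-05). Of the other transcription factors, Mlxipl (ChREBP), which answers to carbohydrate, was at 3.00, 2.99 and 3.06 on the control arrays and at 1.78, 1.55 and 1.67 on the S3d arrays, a log2 fold change of -1.35 (SE 0.08, limma adjusted p = 3.4e-05). Cebpa was lower as well (-1.29, limma adjusted p = 3.3e-05), and 5 of the 9 tested genes of this group were called lower and 3 higher, or 4 and 3 without S3d 1. In mitochondrial fatty acid synthesis, 4 of 6 tested genes were called lower, or 3 without S3d 1, led by Hsd17b8 (-1.22) and Mcat (-1.07). Without scaling between arrays, the lipogenic genes other than Scd that are named with a value as lower by their brightest probe all changed sign. That setting moves all probes alike, from a median of 0.08 to 1.93. These turns were set by the scaling and tell nothing further about single genes.

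**Figure D4:**
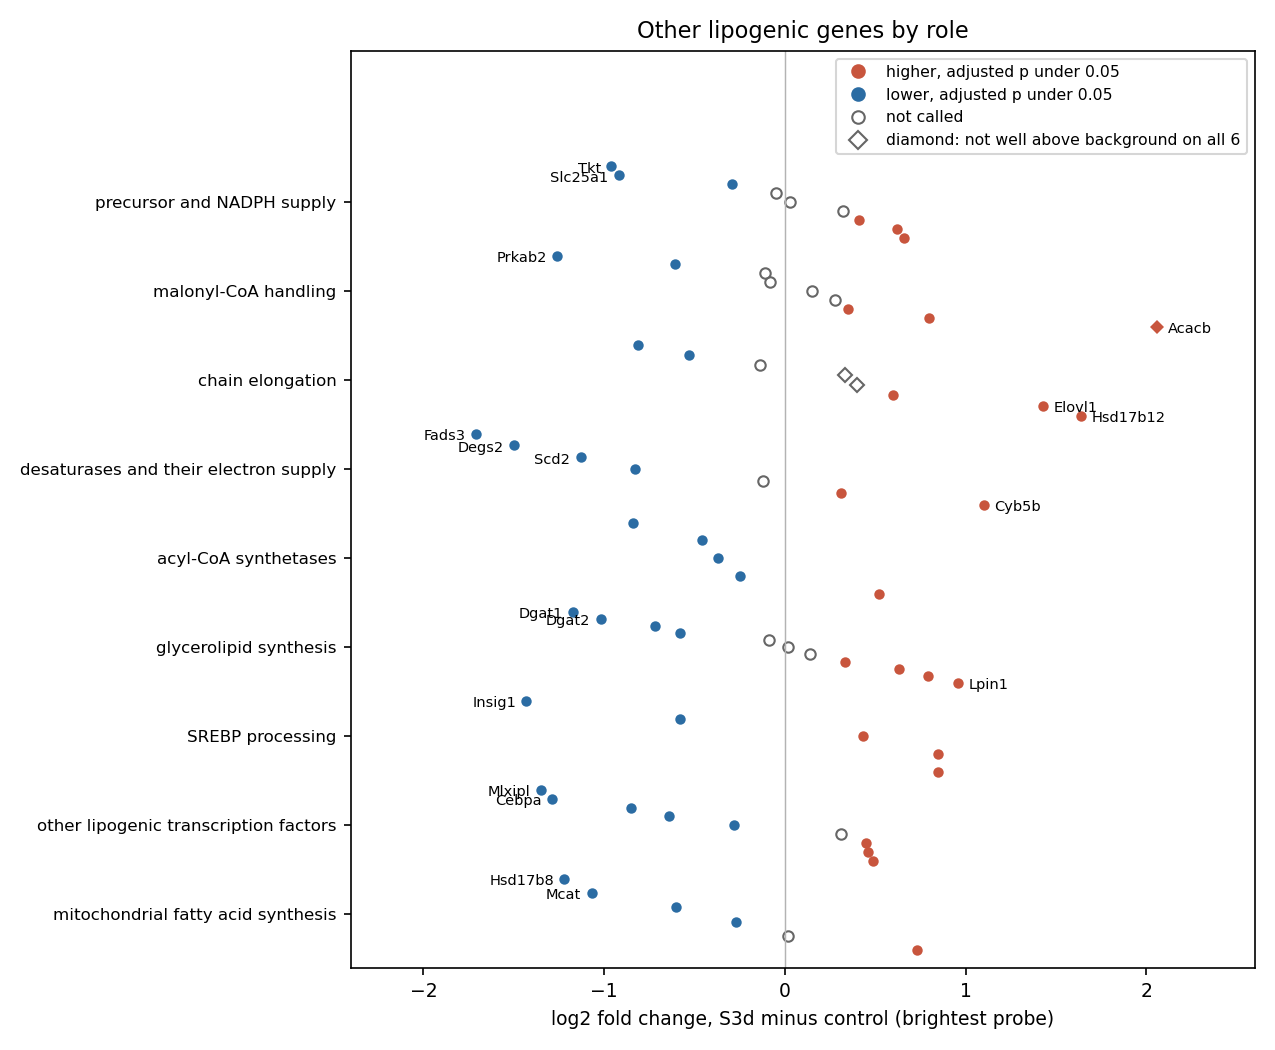
Log2 fold change (horizontal axis, S3d minus control, brightest probe) of the 69 other lipogenic genes tested, in rows by role; filled points passed the test (red, 23 higher; blue, 30 lower), open points did not, and diamonds were not well above background on all 6 arrays. Each of the 9 rows holds genes of both directions.

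The 5 named genes whose pattern over the 6 arrays lay nearest to that of Scd, by the root mean square distance of levels centred on the control mean, were Foxe1 (0.59), H1f5 (0.63), Sall3 (0.65), Npw (0.69) and Hbb (0.70), out of 10389 genes compared. None of the members or of the other listed lipogenic genes was among them. Their log2 fold changes ran from -4.00 to -3.56, and all 5 varied less within the S3d group than Scd did.

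**Figure D5:**
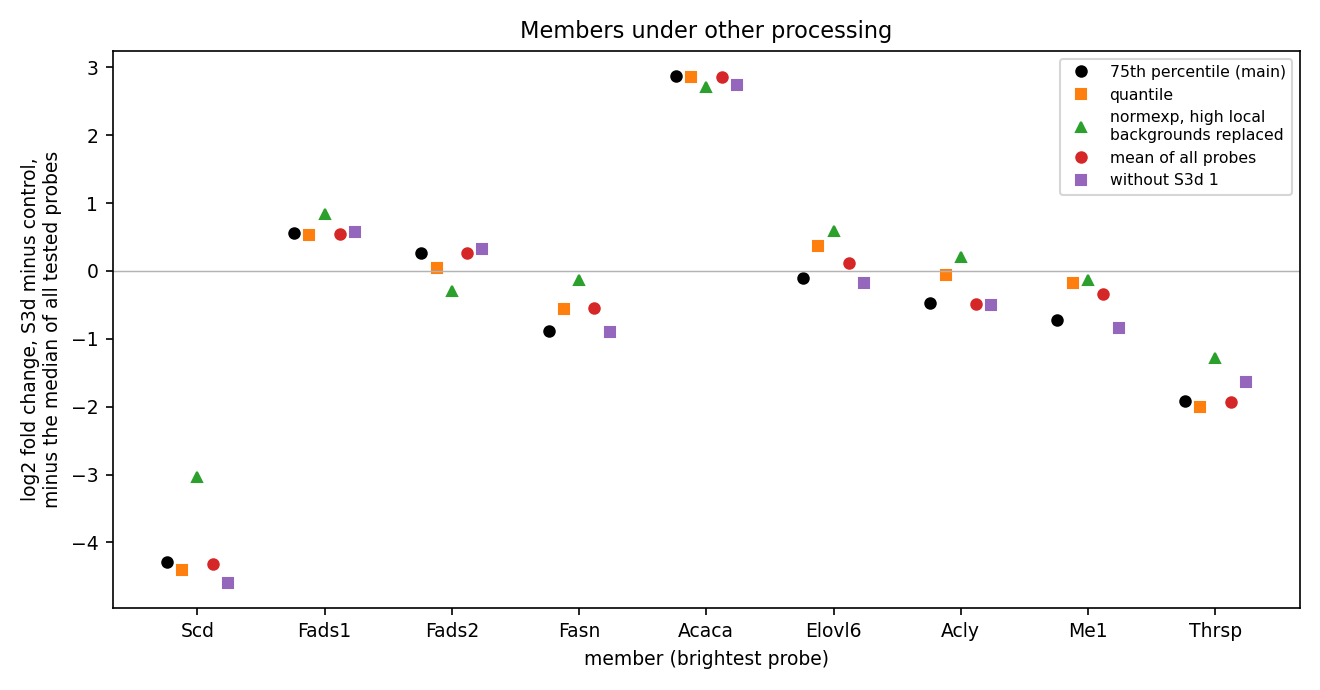
Log2 fold change (S3d minus control) of the 9 members minus the median of all tested probes (vertical axis, log2), by the brightest probe, under 5 kinds of processing. The points of Scd and Thrsp stay below 0 and those of Acaca and Fads1 above 0 in all 5, whereas those of Fads2, Elovl6 and Acly fall on both sides.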

How the data were processed

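Jejunal RNA of 2 groups was measured on 6 single-colour Agilent arrays. The authors deposited scanner output from Agilent Feature Extraction 10.7.3.1 (10.7 in the submitters' notes), whose processed-signal intensity is background-corrected but not normalized between arrays, and a table of quantile-normalized log2 values. Control spots and outlier-flagged spots were left out, repeated spots were averaged, and log2 intensity was set relative to each array's 75th percentile. A probe was tested where either group had it well above background on its 3 arrays (31367 of 41012 probes) with limma 3.58.1 in R 4.3.3 (lmFit, eBayes, Benjamini-Hochberg over all of them), after a test on simulated data. A gene is called on its brightest probe. Probes were named through RefSeq accessions (GRCr8 table; 17503 probes). Members, gene lists and tests were chosen with earlier results of these data known. Named were all members, the 2 largest called genes of each role group that were above background on all 6 arrays without overlap, the Scd, Elovl and Fads families, and the 5 genes nearest to Scd. Other genes named with values were chosen after these were seen, as was normexp with the local background of 8 spots replaced. Lists of markers of other cell types were counted by the same calls. The slide could not be fitted as a block.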

Additional observations from a re-analysis of the deposited data

How the results depend on the processing

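The member counts of 3 higher and 4 lower were the same without any 1 array and with the outlier spots kept, either other filter, an intensity trend and the methods' one-way ANOVA. Leaving out 1 array gave 22 to 26 higher and 26 to 28 lower calls among the other lipogenic genes, 11362 to 12135 higher and 10003 to 10678 lower probes, -4.51 to -3.66 for Scd, -0.10 to 0.03 for Elovl6, which changed sign without control 1, S3d 2 or S3d 3, and -0.20 to 0.95 for Elovl2, which was below 0 without control 1. Same-numbered arrays did not deviate together (correlations 0.02, 0.022 and -0.049), and differently numbered ones gave -0.077 to 0.062. With 3 arrays a group and a slide for each group, this check cannot show whether the numbers pair the samples. With the replicate block, 3 members were higher and 4 lower, 23 and 28 of the other lipogenic genes, and 11892 and 10319 probes.
By the normalized table and its own labels, the sign turned for Scd (4.40), Fads1 (-0.55), Fads2 (-0.04), Fasn (0.55), Acaca (-2.87), Acly (0.05), Me1 (0.16), Thrsp (2.00), Slc25a1 (0.80), Prkab2 (1.53), Prkag1 (-0.85), Hsd17b12 (-1.66), Elovl1 (-1.62), Fads3 (1.62), Degs2 (0.97), Acsl3 (0.65), Acsl6 (-0.05), Dgat1 (0.28), Dgat2 (0.59), Insig1 (0.98), Mbtps1 (-0.89), Mlxipl (1.19), Cebpa (1.41), Hsd17b8 (1.08), Mcat (0.96), Elovl7 (0.24) and Scd2 (1.02), and Elovl6 was called lower (-0.37). Without scaling between arrays limma called 7 members higher and 0 lower (0 also at an unadjusted p under 0.05), 68 and 0 of the other lipogenic genes (0 likewise), and 29539 and 582 probes; Scd moved to -2.36, and the sign turned for Fasn (1.05), Elovl6 (1.83), Acly (1.45), Me1 (1.21), Thrsp (0.01), Tkt (0.88), Slc25a1 (0.92), Prkab2 (0.58), Fads3 (0.13), Degs2 (0.35), Acsl3 (1.01), Dgat1 (0.67), Dgat2 (0.83), Insig1 (0.41), Mlxipl (0.50), Cebpa (0.55), Hsd17b8 (0.62), Mcat (0.78), Elovl7 (1.71) and Scd2 (0.71). Leaving out the scaling shifts all probes alike, so these turns were set by the scaling and not by single genes. Quantile normalization left 2 members lower, lost the calls of Fads2 (0.06), Acly (-0.05) and Me1 (-0.16), and turned Elovl6 (0.39), Tkt (0.12), Elovl2 (-0.44) and Elovl5 (-0.33). Median centring lost the call of Fads2 (0.18), and the mean over all probes lost that of Me1 (-0.25) and turned Elovl6 (0.21). With a fold of at least 1.5 required, 14 of the other lipogenic genes were higher.
Planned normexp background correction used the median signal, since the files hold no mean signal. On control 3, 8 spots had a local background of up to 54705, which moved the fitted normexp mean to -840.9. It left 0 member calls in either direction with limma (1 and 1 at an unadjusted p under 0.05), 3 higher and 1 lower of the other lipogenic genes, 543 and 1209 probes, -3.42 for Scd, -0.17 for Fasn, 1.84 for Acaca, -0.11 for Me1 and -1.98 for Thrsp, and it turned Fads1 (-0.02), Fads2 (-1.44), Elovl6 (0.58), Acly (0.19), Acsl6 (-1.46), Elovl2 (-2.04) and Elovl5 (-1.93). With the background of those spots replaced by the array's median, an alternative chosen after the data were seen, 6587 probes were higher and 18971 lower, and Fads2 (-0.71), Elovl6 (0.16), Acsl6 (-0.67), Elovl2 (-1.24) and Elovl5 (-1.10) turned. The number of arrays limits the precision, and Fads2, Elovl2, Elovl5 and, on the S3d arrays, Scd lie near the background.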
